A study of Mus musculus with 22 samples.

Results

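The genes described here encode the nuclear subunits of oxidative phosphorylation, measured in sorted LT-HSCs (long-term hematopoietic stem cells) of mice. They were chosen by name: every probe set of the array whose platform symbol begins with Nduf followed by a, b, c, s or v, with Uqcr, with Cox4 to Cox8 or with Atp5, or is Sdha, Sdhb, Sdhc or Sdhd. The rule uses names and no signal, although it was set with earlier results of these data known. It gave 107 of the 26688 probe sets, which carry 94 gene names. Of these, 97 probe sets carry 1 symbol each and represent 88 genes. The other 10 carry several symbols, so that they are counted below but not named, apart from 1 described beside Ndufs1. By role they divide into 40 probe sets of complex I subunits, 4 of complex II, 9 of complex III, 15 of complex IV and 21 of complex V. A further 8 are complex I assembly factors (Ndufaf genes), 8 are isoforms restricted to certain tissues, and 2 are pseudogenes.

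LT-HSCs were sorted as lineage-negative, CD48-negative, CD150-positive bone marrow cells from female C57BL/6J mice, and each of the 22 arrays holds the RNA of 1 animal. The paper's abstract describes the sorted cells as LSK and CD34-negative too, and its stain for the sort included antibodies to Sca-1, cKit and CD34. AHRVav1 mice carry a heterozygous Vav1-Cre transgene and Ahr fx/fx alleles, and AHRFX mice carry the Ahr fx/fx alleles without Cre. There were 5 AHRVav1 and 5 AHRFX animals at 2 months of age, and 6 of each at 18 months. AHR, the aryl hydrocarbon receptor, acts as a transcription factor when a ligand binds it, and the Vav1 promoter drives Cre throughout the hematopoietic system, so that in AHRVav1 mice all blood lineages are targeted and not the stem cells alone. The genotype field and the titles of the samples separate the genotypes, whereas the cell-type field of all 22 samples names the knockout. The array values are those of bulk RNA, in which fewer cells of a type and less RNA per cell cannot be told apart.

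Oxidative phosphorylation takes place at the inner mitochondrial membrane. Complexes I (NADH dehydrogenase) and II (succinate dehydrogenase) pass electrons to ubiquinone, complex III hands them to cytochrome c, complex IV (cytochrome c oxidase) reduces oxygen, and complexes I, III and IV build the proton gradient that complex V (ATP synthase) uses to make ATP. Most of the subunits are encoded in the nucleus, and the few encoded by the mitochondrial genome were not analysed here. Resting LT-HSCs are known for low mitochondrial activity and reliance on glycolysis, and mitochondrial activity increases as they enter the cell cycle and differentiate.

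Signals are array intensities on a linear scale, and differences are given on the log2(signal + 16) scale with their standard error (SE). The arrays of the 2 ages differed. Arrays of 1 group correlated with each other by 0.682 to 0.774 in young animals and by 0.95 to 0.981 in old ones. An array's background was taken as the 95th percentile of 1401 probe sets of odorant and vomeronasal receptors, which marrow cells are not known to use. Between 24.4% and 34.3% of all probe sets were above it at 2 months, against 52.3% to 58.7% at 18 months. Ahr itself, the targeted gene, had a mean signal at 18 months of 52.0 ± 24.9 in AHRFX, against 28.0 ± 7.62 in AHRVav1 (SD over 6 animals each, log2 difference AHRVav1 minus AHRFX -0.57, exact permutation test over 924 arrangements, two-sided p = 0.0238). It was above background on 5 of 6 arrays in AHRFX and on 2 of 6 in AHRVav1. The difference was -0.30 when replicates 1 and 2 of each genotype were left out (exact p = 0.2). In young animals Ahr was above background on 0 of the 10 arrays, with signals of 2.6 to 10.1 in AHRVav1 and 2.0 to 7.7 in AHRFX, so that the labels could not be checked by this gene at that age. Which of its probes lie within the deleted stretch was not determined, and a probe outside it checks nothing. Of 12 LT-HSC marker genes fixed for a check of identity, 10 were measured, and Hlf, Mllt3, Kit, Meis1 and Mecom, regulators of stem cell identity and the receptor of stem cell factor, were above background on all arrays. Slamf1, which encodes the CD150 of the sort, Procr and Ctnnal1 were above it on all 12 arrays at 18 months, but at 2 months Slamf1 was so on 4 of 5 arrays in AHRFX and 2 of 5 in AHRVav1, Procr on 3 and 1 and Ctnnal1 on 1 and 2. Fgfr3 and Fgd5 were above it on no array of 1 or more groups.

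The subunits were among the more strongly detected probe sets on these arrays. On each array 77.6% to 86.9% of the 107 probe sets were above background at 2 months and 89.7% to 92.5% at 18 months. Over all 22 arrays, 70 of the 107 were above background everywhere, 31 on some arrays and 6 on none. The 6 were Cox7b2 and Cox8c (isoforms of cytochrome c oxidase known from testis), the pseudogenes Uqcrh-ps1 and Atp5c1-ps, Atp5g1 (a gene for the c subunit of ATP synthase) and 1 of the probe sets of Atp5h (a stalk subunit of ATP synthase).

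The mean log2 signal of a complex in each animal summarises the levels. Complex I subunits averaged 8.74 ± 0.18 in AHRFX and 8.51 ± 0.17 in AHRVav1 at 2 months (SD over animals, n = 5 each). At 18 months they averaged 9.11 ± 0.083 in AHRFX and 9.23 ± 0.11 in AHRVav1 (SD, n = 6 each). AHRVav1 was thus lower at 2 months and higher at 18 months in the mean, and the animals of the genotypes overlapped at both ages. For complex IV the means were 9.70 ± 0.18 in AHRFX and 9.74 ± 0.22 in AHRVav1 at 2 months. At 18 months they were 9.87 ± 0.10 in AHRFX, with single animals between 9.78 and 10.01, and 10.00 ± 0.073 in AHRVav1, with animals between 9.92 and 10.11. Complex V stood at 9.46 ± 0.037 and 9.46 ± 0.13 in AHRFX and AHRVav1 at 2 months, and at 9.69 ± 0.061 and 9.82 ± 0.11 at 18 months. Complex II, with its 4 probe sets, was the most variable of the 5 at 2 months, with 8.15 ± 0.55 in AHRFX and 7.97 ± 0.63 in AHRVav1, and stood at 9.11 ± 0.16 and 9.13 ± 0.24 at 18 months.

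**Figure D1:**
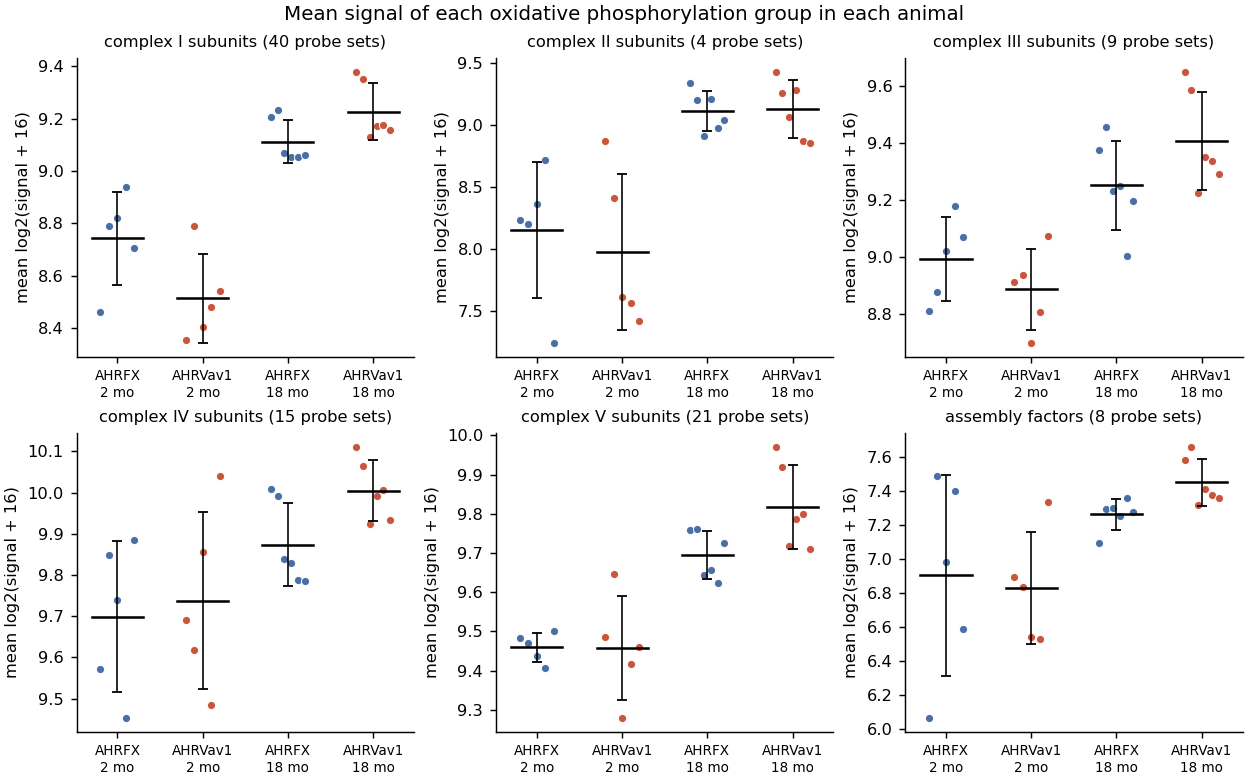
Mean log2(signal + 16) of the subunits of complexes I to V and of the complex I assembly factors in each animal, with 1 point per animal (5 per genotype at 2 months, 6 per genotype at 18 months), a bar at each group mean and whiskers of 1 SD. Animals of the genotypes overlap in every panel at both ages, and complex II has the largest SD of the 5 complexes at 2 months.

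The first question was whether the loss of AHR from blood cells goes with a different level of these genes in old stem cells. At 18 months 82 of the 107 probe sets (76.6%) had a higher mean in AHRVav1 than in AHRFX, against 50.1% of all probe sets, and the median difference was 0.13, against 0.00 over the whole table. The differences were small, from -0.28 to 0.37. No member passed the adjusted threshold of 0.05 in limma, as was true of 0.0% of all probe sets, and the smallest adjusted p among the members was 0.661. At an unadjusted p under 0.05, limma gave 14 members higher in AHRVav1 (13.1%, against 3.09% of all probe sets) and 0 lower (against 3.09%). None of the 14 reached 1.5-fold. The methods' t-test at the same unadjusted threshold gave 17 higher (15.9%, against 3.15% of all probe sets) and 0 lower (against 3.08%). The animals of the genotypes did not overlap for 1 member in the higher direction (0.18% of all probe sets) and for 0 in the lower direction (0.199%).

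Complexes I, III, IV and V leaned in this direction. Higher means in AHRVav1 were found for 30 of 40 complex I probe sets (median 0.14), 8 of 9 of complex III (median 0.17), 14 of 15 of complex IV (median 0.15) and 19 of 21 of complex V (median 0.13). Between replicates 1 and 2, and then between replicates 3 to 6, the medians were 0.13 and 0.13 for complex I and 0.20 and 0.09 for complex III. They were 0.11 and 0.14 for complex IV and 0.12 and 0.14 for complex V. The 8 complex I assembly factors had 7 higher means, with a median of 0.19. Their median was 0.40 (8 of 8 higher) between replicates 1 and 2 and 0.08 (6 of 8 higher) between replicates 3 to 6. Complex II, which feeds electrons in from the citric acid cycle and moves no protons, had 2 of 4 higher and a median of 0.00. Its medians were 0.18 between replicates 1 and 2 and 0.03 between replicates 3 to 6. The tissue-restricted isoforms had 1 of 8 higher and a median of -0.07, and 5 of 8 higher with a median of 0.03 between replicates 3 to 6 alone. Whether the complexes differ from each other was not tested.

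**Figure D2:**
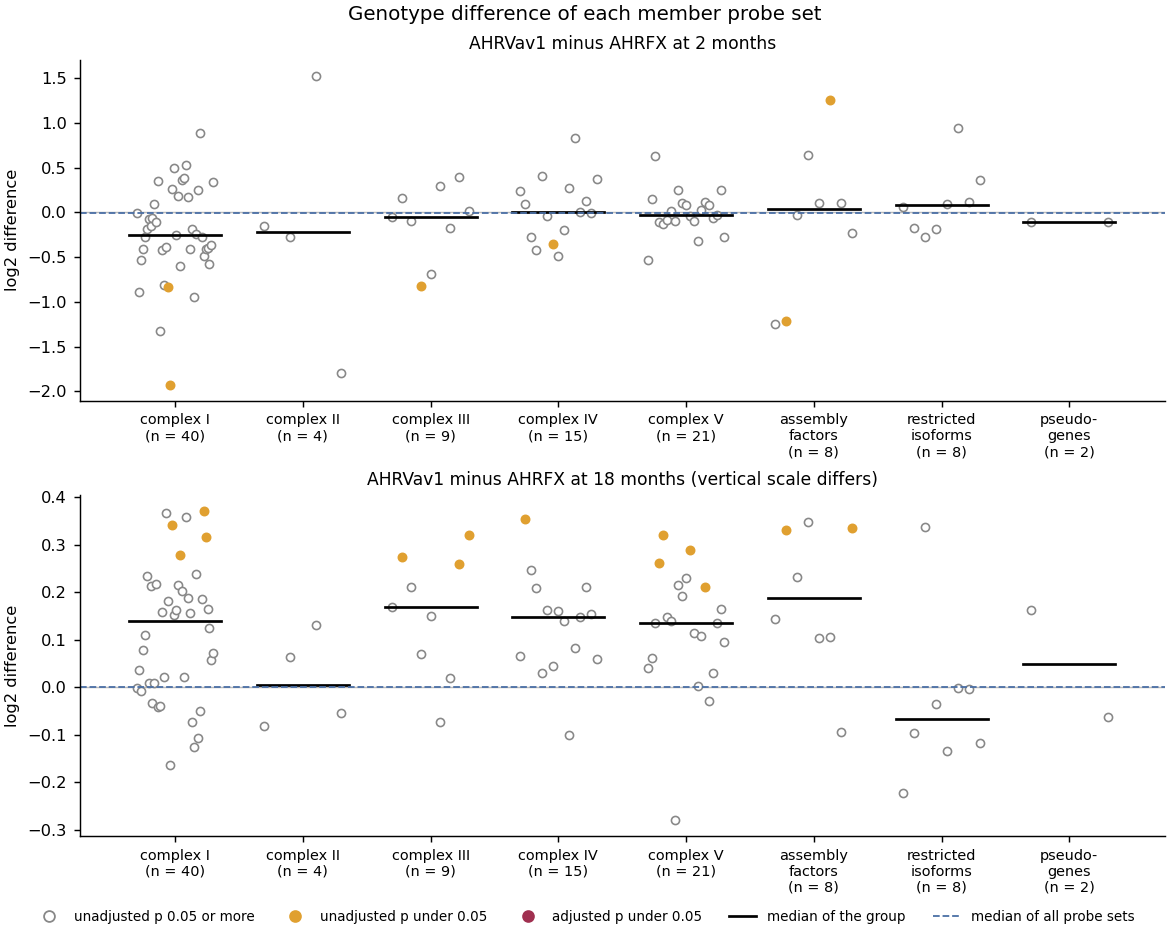
Log2 difference AHRVav1 minus AHRFX of each member probe set by complex or class, at 2 months and at 18 months on different vertical scales, with a bar at each median, a dashed line at the median of all probe sets and filled points for an unadjusted p under 0.05. At 18 months 30 of 40 complex I, 14 of 15 complex IV and 19 of 21 complex V probe sets lie above 0, whereas at 2 months 12 of 40 complex I probe sets do, and no point passed the adjusted threshold.

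Cox5a, a subunit of the matrix side of complex IV, had the smallest p of the members. Its signals at 18 months ran from 1189 over a median of 1324 to 1379 in AHRFX, and from 1564 over 1662 to 1791 in AHRVav1 (n = 6 each). All 6 AHRVav1 animals were above all 6 AHRFX animals. The difference was 0.35 (SE 0.08, limma adjusted p = 0.661), and it was 0.43 between replicates 1 and 2 of the genotypes and 0.32 between replicates 3 to 6. At 2 months the Cox5a signals were 559.0, 1008.5, 1003.4, 1299.4 and 1016.8 in AHRFX and 1248.0, 774.3, 1256.2, 908.0 and 960.2 in AHRVav1. The young animals of the genotypes overlapped over nearly the whole range (difference 0.10, SE 0.24, limma adjusted p = 0.979).

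Ndufs7, an iron-sulfur subunit close to the ubiquinone site of complex I, had signals at 18 months of 251 to 339 (median 292) in AHRFX and of 327 to 437 (median 364) in AHRVav1. The groups overlapped through 2 AHRVav1 animals and 1 AHRFX animal, and the difference was 0.32 (SE 0.12, limma adjusted p = 0.793). Atp5k encodes the small e subunit in the membrane part of ATP synthase. Its signals ran from 2041 to 2467 (median 2269) in AHRFX and from 2467 to 2980 (median 2569) in AHRVav1, so that the ranges met at 1 shared value, with a difference of 0.21 (SE 0.08, limma adjusted p = 0.793). Both probe sets of Atp5d, the delta subunit of the rotor stalk of ATP synthase, were among the 14, with differences of 0.32 and 0.26 (limma adjusted p = 0.793 and 0.807).

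The lower members with the smallest p were Atp5g1, Cox4i2 and Ndufs4. Atp5g1 had a difference of -0.28 (limma adjusted p = 0.832), but was above background on no array, so that no fold is given. Cox4i2 is the isoform of subunit 4 of complex IV that is known from lung and from low oxygen. At 18 months its signals were 296 to 421 (median 337) in AHRFX and 239 to 368 (median 294) in AHRVav1, which overlapped widely (difference -0.22, SE 0.13, limma adjusted p = 0.834). Ndufs4, an accessory subunit needed for the stability of complex I, had 642 to 805 (median 708) in AHRFX and 627 to 699 (median 663) in AHRVav1. These ranges overlapped too (difference -0.11, SE 0.09, limma adjusted p = 0.883).

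The small shift at 18 months was present in both sets of replicate numbers, replicates 1 and 2 and replicates 3 to 6. No label gives this split, which was made with the values of the arrays known. Between replicates 1 and 2 of the genotypes the median over the members was 0.12 with 79 of 107 higher, and between replicates 3 to 6 it was 0.11 with 81 of 107 higher, while the medians of all probe sets were -0.02 and 0.01. The level itself differed between these sets: the members' mean was 8.97 in AHRFX and 9.13 in AHRVav1 in replicates 1 and 2, and 8.85 and 8.94 in replicates 3 to 6. By animal it was 8.97 and 8.98 in AHRFX and 9.15 and 9.10 in AHRVav1 in replicates 1 and 2, and 8.80 to 8.86 in AHRFX and 8.91 to 8.98 in AHRVav1 in replicates 3 to 6, so that the genotypes overlapped over all 6 animals and not within either set. Marker lists differed between the genotypes as well. Of 12 probe sets of proliferation genes 10 were higher in AHRVav1 (median 0.21, 4 at an unadjusted limma p under 0.05, 0 after adjustment), with a summed signal of 6131 to 7870 in AHRFX and 6564 to 9654 in AHRVav1, and 0 of its 11 genes were below background throughout. Its mean log2 signal was 8.84 against 9.43 (AHRFX against AHRVav1) in replicates 1 and 2 and 9.01 against 9.03 in replicates 3 to 6. Of 8 erythroid marker genes 7 were higher (median 0.19), with summed signals of 2424 to 5414 and 1959 to 10958, and 0 were below background throughout. Their mean was 7.87 against 9.51 in replicates 1 and 2 and 7.64 against 7.10 in replicates 3 to 6. LT-HSC markers had 0 of 11 probe sets higher (median -0.17, summed signals of 3749 to 5162 in AHRFX and 3010 to 4499 in AHRVav1) and megakaryocyte markers 0 of 8 (median -0.40, summed signals of 2708 to 4723 and 1955 to 3262), with 0 called in either list. The part of these cell types and of the replicate sets in the result was not tested.

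Promoter sequences are shown for the members with the smallest p in the higher direction at 18 months and for Ndufb11, the only member without overlap between the genotypes at 2 months. They are RefSeq promoters of the build GRCm38.p6, each of 300 bases, 250 before and 50 after the start of the gene, and were matched by symbol for 71 of the 88 genes. Capitals mark matches, on either strand, to the core that AHR binds (GCGTG), to the site of NRF1 (GCATGCGC) or to the ETS site (CCGGAAG) that GABP binds. NRF1 and GABP are known regulators of respiratory chain genes. The windows lie at chr9:57520982-57521281 (plus strand, Cox5a), chr10:80249199-80249498 (plus strand, Ndufs7), chr5:108434350-108434649 (minus strand, Atp5k) and chrX:20617570-20617869 (minus strand, Ndufb11).
Cox5a: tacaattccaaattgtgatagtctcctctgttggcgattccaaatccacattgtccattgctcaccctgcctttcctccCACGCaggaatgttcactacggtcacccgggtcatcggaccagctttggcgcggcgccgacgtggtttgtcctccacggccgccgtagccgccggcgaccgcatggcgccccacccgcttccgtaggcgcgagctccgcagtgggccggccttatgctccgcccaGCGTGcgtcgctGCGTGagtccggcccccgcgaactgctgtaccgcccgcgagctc
Ndufs7: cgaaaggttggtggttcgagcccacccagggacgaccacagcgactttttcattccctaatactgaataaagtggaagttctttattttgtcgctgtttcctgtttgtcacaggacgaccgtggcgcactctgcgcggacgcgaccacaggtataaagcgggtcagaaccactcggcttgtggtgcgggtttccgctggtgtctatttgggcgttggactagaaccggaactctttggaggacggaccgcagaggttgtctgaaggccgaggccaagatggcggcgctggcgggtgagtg
Atp5k: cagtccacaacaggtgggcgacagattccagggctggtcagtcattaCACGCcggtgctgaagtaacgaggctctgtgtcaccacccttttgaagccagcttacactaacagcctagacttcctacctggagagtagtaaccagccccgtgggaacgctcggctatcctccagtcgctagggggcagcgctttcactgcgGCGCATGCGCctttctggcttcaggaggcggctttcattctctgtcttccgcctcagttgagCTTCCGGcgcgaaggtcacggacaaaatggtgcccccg
Ndufb11: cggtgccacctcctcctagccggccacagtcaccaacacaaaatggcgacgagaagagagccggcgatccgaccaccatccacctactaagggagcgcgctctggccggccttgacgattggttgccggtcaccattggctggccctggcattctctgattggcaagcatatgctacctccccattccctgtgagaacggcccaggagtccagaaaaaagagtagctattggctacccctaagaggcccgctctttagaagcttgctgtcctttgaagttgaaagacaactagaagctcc
Cox5a held 3 matches to the AHR core and 0 to the other motifs. Atp5k held 1 AHR core, 2 NRF1 sites that overlap each other on opposite strands, and 1 ETS site. The windows of Ndufs7 and Ndufb11 held 0 matches to any of these letters. Over 76 windows of the members, 56.6% held the AHR core, 15.8% the NRF1 site and 25.0% the ETS site, against 32.4%, 2.71% and 8.86% of all 32851 promoter windows of this length. The members' windows were also richer in G and C, with a median of 58.0% against 52.7%, and each of these motifs contains mostly G and C. A match of the AHR core overlapped an NRF1 site in 1 member window and an ETS site in 1, and NRF1 and ETS matches overlapped in 0. The matches describe the sequences and were not tested for binding.

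At 2 months more members had lower than higher means in AHRVav1. Of the 107 probe sets 44 were higher and 63 lower in AHRVav1, with a median difference of -0.07 against -0.01 over all probe sets. Complex I had 12 of 40 higher and a median of -0.25 and complex II 1 of 4 higher and a median of -0.22, while complexes III, IV and V had medians of -0.05, 0.01 and -0.03. With arrays centred on their probe sets above background the median was -0.23, with 27 of 107 higher, against -0.17 over all probe sets. The median also leaned on single animals: it was -0.0031 without replicate 1 of AHRVav1, with 53 of 107 higher, -0.043 without replicate 4 of AHRVav1 and -0.042 without replicate 5 of AHRFX. No member passed the adjusted threshold (0.0% of all probe sets). At an unadjusted limma p under 0.05, 1 member was higher (1.94% of all probe sets) and 5 were lower (2.69%). The animals did not overlap for 0 members in the higher direction (0.363%) and for 1 in the lower direction (0.495%). The median SD of the members was 0.52 in AHRFX and 0.553 in AHRVav1 at this age, against 0.484 and 0.485 over all probe sets, and 0.21 and 0.173 at 18 months.

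Ndufb11 encodes an accessory subunit in the membrane arm of complex I and lies on the X chromosome. Its signals at 2 months were 214.5, 79.3, 107.5, 93.4 and 91.3 in AHRFX and 30.2, 0.6, 35.3, 5.1 and 31.8 in AHRVav1. All AHRFX arrays were above background and no AHRVav1 array was, so that the signal was at least 1.34-fold higher in AHRFX. This bound sets the mean of AHRFX against the lowest signal above background on each AHRVav1 array. The fitted difference was -1.93 (SE 0.41, limma adjusted p = 0.810). When all 4 groups shared 1 estimate of the spread, the limma adjusted p was 0.012. That estimate includes the 18-month arrays, where the members' median SD was 0.21 in AHRFX and 0.173 in AHRVav1. At 2 months it was 0.52 and 0.553, so that the shared estimate can understate the spread at 2 months. At 18 months Ndufb11 ran from 77.0 to 233.9 (median 104) in AHRFX and from 79.0 to 126.4 (median 95.9) in AHRVav1, and the groups overlapped (difference -0.16, SE 0.21, limma adjusted p = 0.914).

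**Figure D3:**
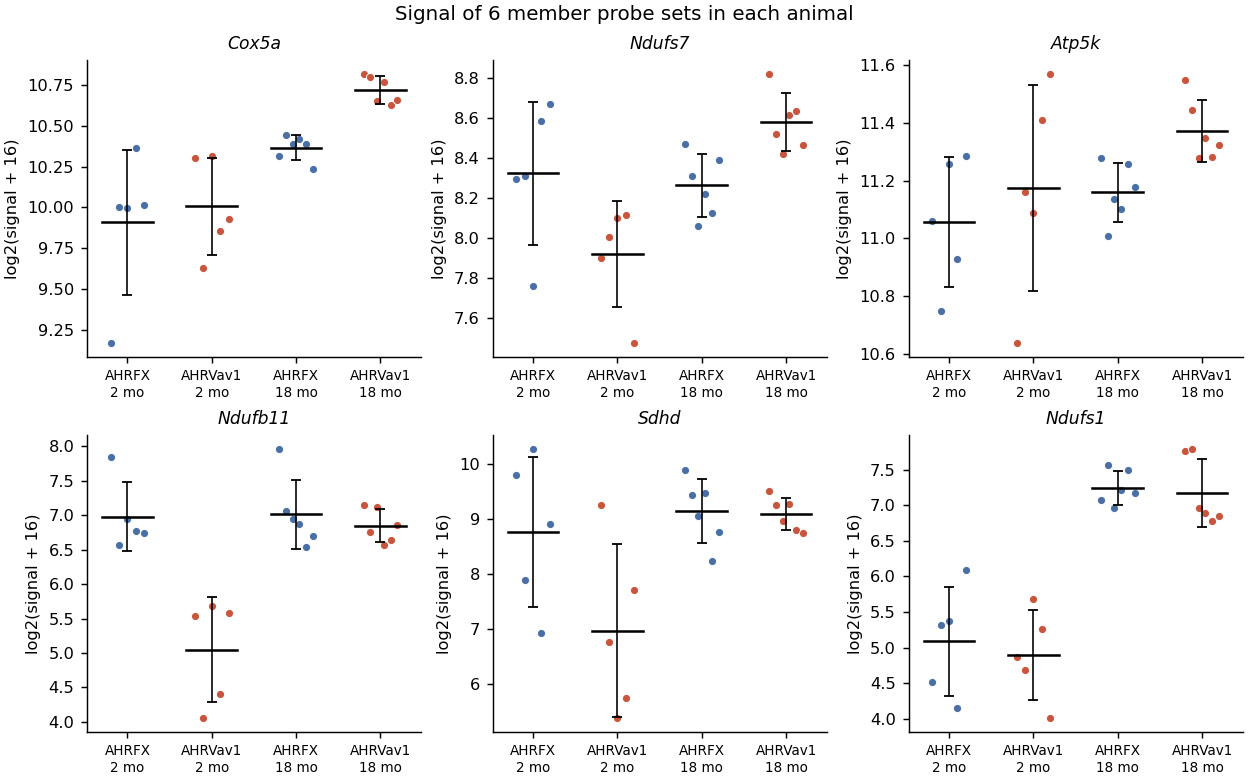
Log2(signal + 16) of Cox5a, Ndufs7, Atp5k, Ndufb11, Sdhd and Ndufs1 in each animal of the 4 groups, with 1 point per animal, a bar at the group mean and whiskers of 1 SD. All 6 AHRVav1 animals lie above all 6 AHRFX animals for Cox5a at 18 months, all 5 AHRVav1 animals lie below all 5 AHRFX animals for Ndufb11 at 2 months, and the genotypes overlap or touch in the other panels.

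Ndufb10, a neighbouring accessory subunit of the membrane arm, had signals of 739.5, 1332.6, 998.2, 745.5 and 761.3 in AHRFX and 323.3, 334.7, 630.7, 798.9 and 532.6 in AHRVav1 at 2 months. All but 1 AHRVav1 animal were below the lowest AHRFX animal (difference -0.83, SE 0.30, limma adjusted p = 0.966). Ndufaf2, an assembly factor that acts late in the building of complex I, had 294.8, 451.9, 245.5, 428.7 and 1038.1 in AHRFX and 286.6, 181.8, 191.7, 81.2 and 205.8 in AHRVav1. The groups overlapped through 1 AHRVav1 animal (difference -1.21, SE 0.44, limma adjusted p = 0.966). At 18 months Ndufaf2 differed by 0.33 in the other direction (SE 0.15, limma adjusted p = 0.807), by 0.85 between replicates 1 and 2 and by 0.07 between replicates 3 to 6.

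Among the members with higher means in AHRVav1 at 2 months, Atp5c1 encodes the gamma subunit, the central shaft of ATP synthase. Its signals were 170.6, 372.4, 262.5, 244.9 and 231.0 in AHRFX and 555.4, 439.0, 329.5, 367.6 and 319.4 in AHRVav1. Of the AHRFX animals 1 lay within the AHRVav1 range (difference 0.63, SE 0.29, limma adjusted p = 0.966). Ndufaf6, another complex I assembly factor, had signals of 0.9 to 13.4 in AHRFX and 5.0 to 54.2 in AHRVav1. All of these were below background, so no fold is given (fitted difference 1.25, SE 0.33, limma adjusted p = 0.966, and 0.0463 with all 4 groups in 1 fit). The fit of all 4 groups has the limit given for Ndufb11.

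Complex II has 4 subunits, all encoded in the nucleus: Sdha binds the flavin and succinate, Sdhb carries the iron-sulfur clusters, and Sdhc and Sdhd anchor the enzyme in the membrane. All 4 varied widely between animals at 2 months. Sdhc had signals of 120.7, 123.5, 367.6, 579.7 and 14.0 in AHRFX and 944.7, 1014.4, 98.9, 759.2 and 281.6 in AHRVav1. The groups overlapped broadly (difference 1.53, SE 0.86, limma adjusted p = 0.966). Sdhd had 881.5, 221.3, 1232.4, 106.0 and 465.0 in AHRFX and 599.8, 92.2, 25.4, 37.2 and 193.4 in AHRVav1, which also overlapped (difference -1.80, SE 0.84, limma adjusted p = 0.966). The 2 anchors of 1 complex thus had differences of opposite sign, and neither passed the test. The catalytic subunits had differences of -0.16 (Sdha, SE 0.72) and -0.28 (Sdhb, SE 0.75). At 18 months the 4 differences lay between -0.08 and 0.13, with Sdhc at 363 to 586 in AHRFX and 430 to 656 in AHRVav1, and Sdhd at 287 to 942 and 416 to 711.

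Whether the genotype difference itself changed with age (18 minus 2 months) was tested directly. It passed the adjusted threshold for 0 members, and for 3 of all probe sets (0.0112%). At an unadjusted limma p under 0.05, 9 members were higher (4.22% of all probe sets) and 1 was lower (3.71%). The median was 0.16 against 0.01 over all probe sets, and for complex I it was 0.42. The members with the smallest p were members already named at 2 months: Ndufb11 (1.77, SE 0.46, limma adjusted p = 0.384), Ndufaf2 (1.54, SE 0.46, limma adjusted p = 0.419), Ndufb10 (1.01, SE 0.33, adjusted p = 0.473) and, in the other direction, Ndufaf6 (-1.15, SE 0.38, adjusted p = 0.475). Sdhc (-1.40, SE 0.82) and Atp5c1 (-0.50, SE 0.30) had adjusted p-values of 0.699 and 0.703. The complex I medians thus had opposite signs at the 2 ages, and no subunit passed the test of that difference.

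The comparison of the ages asked which subunits differ between young and old stem cells within a genotype. In AHRFX 19 members were called higher at 18 months (17.8% of them, against 20.2% of all probe sets) and 6 lower (against 24.2% of all). In AHRVav1 29 were called higher (27.1%, against 22.8% of all) and 3 lower (against 26.2% of all). The median difference was 0.21 in AHRFX and 0.35 in AHRVav1, against -0.11 and -0.09 over all probe sets. In AHRFX the median was 0.13 without replicate 1 of the young animals. Shares of higher calls near those of all probe sets are not particular to these genes, and among the 13344 probe sets of higher mean signal, which include 96 members, the members' share called higher was below the overall share in both genotypes (17.7% against 27.7% in AHRFX, 28.1% against 31.8% in AHRVav1).

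The scale of the age comparisons depends on how arrays this different are put on 1 level. When each array was centred on its probe sets above background, the median of all probe sets moved to 0.70 in AHRFX and 0.86 in AHRVav1. The members' medians moved to 1.01 and 1.30. The called members rose to 86 (80.4%, against 59.2% of all probe sets called higher) and 96 (89.7%, against 67.9%). All of these were higher, so that every lower call of a member was lost. Under both scalings the members' median lay above that of all probe sets. Marker genes of other cell types also moved with age: monocyte genes had 6 of 6 higher in both genotypes (median 2.50 and 2.66), with a summed signal between 80.6 and 1177 in young and between 632 and 3844 in old animals, and 3 of the 6 were below background on all arrays of a group at 2 months. Proliferation genes had 12 of 12 probe sets higher (median 1.82 and 2.42), with a summed signal between 1160 and 4447 in young and between 6131 and 9654 in old animals. Their part in the age differences was not tested.

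Of the 40 complex I probe sets, 7 rose and 1 fell in AHRFX (against 20.2% of all probe sets called higher and 24.2% lower), and 16 rose and 0 fell in AHRVav1 (against 22.8% and 26.2%). In AHRFX the share that rose was thus below that of all probe sets. The 1 that fell was Ndufa6, an accessory subunit (-0.54, SE 0.18, adjusted p = 0.0309), which is named here after its values were seen. Ndufs1 is the largest iron-sulfur subunit, through which electrons leave the flavin site. Its probe set with 1 symbol was below background on all 10 arrays at 2 months, with signals of up to 51.8 in AHRFX and up to 35.2 in AHRVav1. At 18 months it was above background on all 12, with 109 to 173 and 94.0 to 205.8. It rose at least 1.85-fold in AHRFX (limma adjusted p = 0.000404) and at least 1.53-fold in AHRVav1 (adjusted p = 0.000215). A second probe set, with several symbols that include Ndufs1, had signals of 5.9 to 272.1 in AHRFX at 2 months. At 18 months they were 25.9 to 73.4, so that its ages overlapped in AHRFX. In AHRVav1 its signals were 1.0 to 19.9 at 2 months, below background on every array, and 29.6 to 48.6 at 18 months. Ndufb11 rose at least 1.22-fold in AHRVav1 (adjusted p = 0.000835), while in AHRFX its difference was 0.03 (SE 0.34, adjusted p = 0.937). With the assembly factors counted in, the lower member with the smallest p in AHRFX was Ndufaf2, one of these factors, which fell by 1.19 (SE 0.35, adjusted p = 0.017), a call lost under the centring on probe sets above background. In AHRVav1 it was Ndufv3, a small subunit near the flavin site, with a difference of -0.38 (SE 0.26, adjusted p = 0.235) that turned to 0.57 when arrays were centred on probe sets above background.

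In complex II, Sdhc rose by 1.66 in AHRFX (SE 0.60, adjusted p = 0.0397), a call that was lost without any single one of replicates 1, 2 and 5 at 2 months or of the 6 animals at 18 months (1.04 to 1.76, adjusted p = 0.0514 to 0.0701). Sdhd rose by 2.13 in AHRVav1 (SE 0.58, adjusted p = 0.0102). In complex III, Uqcrc2, a core subunit on the matrix side, rose by 0.78 in AHRFX (SE 0.25, limma adjusted p = 0.0237). Without replicate 2 of AHRFX at 18 months it stood at 0.73 (limma adjusted p = 0.0507). The Uqcrc2 call was also lost with a replicate block (limma adjusted p = 0.096) and with all 4 groups in 1 fit (0.0649). Without replicates 1 and 2 at 18 months it was lost too (0.0958). Uqcrfs1, the Rieske iron-sulfur protein that passes electrons towards cytochrome c, rose by 1.07 in AHRVav1 (SE 0.29, limma adjusted p = 0.00914). Its difference in AHRFX was 0.88 (SE 0.36, limma adjusted p = 0.063). Without replicates 1 and 2 at 18 months, the AHRVav1 calls of Sdhd (1.98, limma adjusted p = 0.0511) and Uqcrfs1 (0.96, limma adjusted p = 0.0546) were lost.

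In complex IV, Cox6a1, the common isoform of subunit 6a, rose by 0.64 in AHRFX (SE 0.16, adjusted p = 0.00853), from 1143 to 1971 at 2 months to 1672 to 2730 at 18 months. Cox5a rose by 0.71 in AHRVav1 (SE 0.14, adjusted p = 0.00187), and its difference in AHRFX was 0.46 (SE 0.19, adjusted p = 0.0658). In complex V, Atp5a1, the alpha subunit of the catalytic head, had signals at 2 months of 710 to 1444 in AHRFX and 388 to 1418 in AHRVav1. In old animals they were 1807 to 2241 and 1706 to 2461. Old and young animals did not overlap in either genotype, and Atp5a1 rose by 1.03 in AHRFX (SE 0.16, adjusted p = 0.000561) and by 1.60 in AHRVav1 (SE 0.28, adjusted p = 0.00073). Atp5j2, the f subunit in the membrane part, had the smallest p among lower members of complex V in AHRVav1 (-0.45, SE 0.19, adjusted p = 0.0601), and its difference became 0.49 after centring on probe sets above background. The lower calls of Cox8c (-0.72 in AHRFX and -0.84 in AHRVav1) and of the pseudogene Atp5c1-ps (-0.41 in AHRFX) were of probe sets below background on every array, and they turned to 0.09, 0.10 and 0.40 under that centring. The pseudogene Uqcrh-ps1, at -0.13 and -0.09, was not called and turned to 0.68 and 0.86.

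**Figure D4:**
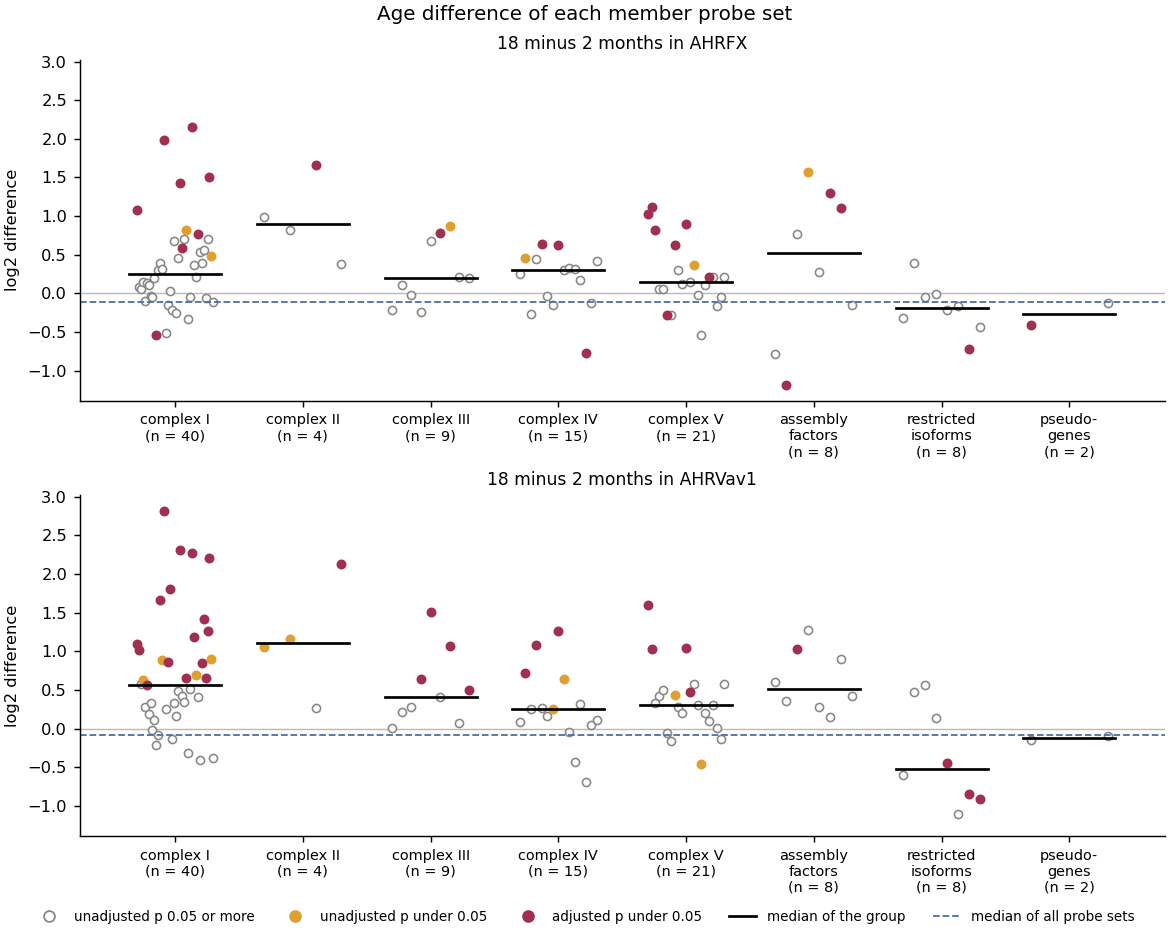
Log2 difference 18 minus 2 months of each member probe set by complex or class in AHRFX and in AHRVav1, with filled red points for adjusted p under 0.05, a bar at each median and a dashed line at the median of all probe sets. In AHRFX 19 were called higher and 6 lower and in AHRVav1 29 higher and 3 lower, whereas all calls are higher when arrays are centred on probe sets above background.

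Of the called members, 16 of 25 in AHRFX and 16 of 32 in AHRVav1 were above background on every array of both ages. In 2 and 5 cases 1 of the ages had no array above background, and in 3 and 3 cases neither age had one.

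Several subunits of complex IV have isoforms that replace the common form in certain tissues, and the forms differed in how many arrays had them above background. The common forms Cox4i1, Cox6a1, Cox6b1, Cox7a2, Cox8a and Ndufa4, and the related Cox7a2l, which takes part in joining complexes III and IV, were above background on all 22 arrays. Of the restricted forms only Cox4i2 was too. Cox6b2, known from testis, was above it on 4 or 5 of the 5 arrays per genotype at 2 months and on all 6 at 18 months. Cox6a2 and Cox7a1, the forms of heart and skeletal muscle, were above background on 2 and 1 of 5 arrays (Cox6a2) and 0 and 1 of 5 (Cox7a1) in AHRFX and AHRVav1 at 2 months, and on 6 and 4 and on 5 and 6 of 6 at 18 months. Cox8b, another muscle form, was at or below 10.2 on 21 arrays and at 503.6 on the array of replicate 3 of AHRVav1 at 2 months. Ndufa4l2, a relative of Ndufa4 that low oxygen is known to induce, was above background on 1 array of each group but AHRVav1 at 18 months, where it was on 0. It was called lower at 18 months in AHRVav1 (-0.91, SE 0.25, adjusted p = 0.0095) although 4 of the 5 young arrays were not above background either, so no fold is given, as was Cox7b2 (-0.44), which was never above background, and both calls were lost when arrays were centred on probe sets above background. Among the 3 genes that encode the identical c subunit of the ATP synthase ring, Atp5g2 (both probe sets) and Atp5g3 were above background on all arrays and Atp5g1 on none.

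For 9 genes more than 1 member probe set with 1 symbol was measured, and probe sets of 1 gene are not independent. Pairs that include a probe set with several symbols are left out here. At 18 months both differences were positive for 7 of these genes. They were 0.26 and 0.32 for Atp5d, 0.15 and 0.14 for Atp5e (the epsilon subunit of the rotor), 0.21 and 0.19 for Atp5g2, 0.25 and 0.21 for Cox5b (a zinc-binding subunit of complex IV), 0.08 and 0.15 for Cox7b (a small subunit of complex IV), 0.11 and 0.23 for Ndufa12 (an accessory subunit of complex I) and 0.11 and 0.29 for Atp5h, of which the second probe set was below background on every array. The exceptions were the complex I subunits Ndufa8 (0.16 and -0.04) and Ndufa11 (0.08 and -0.01). With age the probe sets of Cox5b had differences of opposite sign in AHRFX (-0.27 and 0.45, adjusted p = 0.332 and 0.12), and those of Atp5e both had lower means in AHRFX (-0.29 and -0.28), of which the first was called (adjusted p = 0.0355) and that call was lost under the centring on probe sets above background.

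The pathway was followed beyond the subunits with 4 gene lists. At 18 months the assembly factors of the complexes had 33 of 41 probe sets higher in AHRVav1 (median 0.11). The smallest p-values among them were those of Cox10 (0.47, SE 0.16, limma adjusted p = 0.793), which makes the heme of complex IV, and of Cox17 (0.27, SE 0.11, limma adjusted p = 0.795), a copper chaperone. The list of electron carriers had 15 of 22 probe sets higher (median 0.09). It holds cytochrome c, ubiquinone synthesis genes, electron transfer flavoprotein genes with Etfdh, and Cyc1, a complex III subunit outside the name rule. In this list 2 probe sets of the cytochrome c gene Cycs hold identical values, and both are counted here. The citric acid cycle had 9 of 13 higher (median 0.08, Dlst 0.46, limma adjusted p = 0.793) and the regulators of mitochondrial genes 12 of 20 (median 0.06). In replicates 1 and 2 the mean log2 signal of the citric acid cycle was 9.057 in AHRFX and 9.269 in AHRVav1. In replicates 3 to 6 it was 8.937 and 8.935. For the regulators these means were 7.06 and 7.19, then 7.03 and 7.02. Assembly factors had 7.45 and 7.57, then 7.22 and 7.34, and electron carriers 7.52 and 7.56, then 7.38 and 7.42. No gene of these lists passed the adjusted threshold in a genotype comparison or for the difference between the ages. At 2 months the medians were -0.16 for assembly factors, 0.21 for electron carriers, -0.10 for the citric acid cycle and 0.01 for regulators. With age, 10 of 41 assembly factor probe sets were called higher and 0 lower in AHRFX, and 19 and 0 in AHRVav1, where 20.2% and 24.2% of all probe sets were called higher and lower in AHRFX, and 22.8% and 26.2% in AHRVav1. For the 22 probe sets of electron carriers the calls were 10 and 0 in AHRFX and 11 and 1 in AHRVav1, for the 13 of the citric acid cycle 7 and 0, and 8 and 0, and for the 20 of regulators 8 and 1, and 9 and 1. Nrf1, which encodes the transcription factor named above, was among the regulators called higher in both genotypes, and was above background on 0 of 10 arrays at 2 months and on all 12 at 18 months.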

How the data were processed

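Gene expression was measured on 22 Affymetrix Mouse Gene 2.0 ST arrays, 1 per animal, after amplification of the RNA with a WT-Ovation PicoSL kit. The deposited table gives 1 intensity per probe set and array, unlogged. Affymetrix Expression Console was used by the authors to run IterPLIER, which subtracts background and normalizes by quantiles. The sources used here give neither its version nor the array runs. Groups were taken from the genotype and age in the sample labels.

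Intensities were transformed as log2(signal + 16). All 26688 probe sets were fitted with the lmFit and eBayes functions of limma 3.58.1 (R 4.3.3, trend on mean signal) on the 2 groups of a comparison, or on all 4 groups for the difference between the ages, with Benjamini-Hochberg adjustment over all probe sets and a threshold of 0.05. Ahr was compared by an exact, two-sided permutation test. The fit was tested on simulated data. Replicates are separate animals, so p-values measure the spread between animals, and the number of arrays limits the precision.

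The members and the other gene lists were chosen with earlier results of these data known, and lists are described by counts and medians without a test. Named were the 3 higher and the 3 lower members with the smallest p in each genotype comparison and in the difference between the ages. Per complex, the higher and the lower member with the smallest p in each age comparison were named. All of complex II, tissue isoforms with their common forms, and genes with several probe sets of 1 symbol were named too. Of each other list the members with the smallest p were named. Gene symbols came from the platform annotation, in which 23321 probe sets have 1 symbol, 1802 several and 1565 none. Promoter sequences came from RefSeq (GRCm38.p6). Alternatives covered offsets of 1 and 64, only probe sets of high signal or with 1 symbol, another quantile normalization, centring on probe sets above background, no trend, array weights, the methods' t-test, a replicate block, all groups in 1 fit, and leaving out arrays.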

Additional observations from a re-analysis of the deposited data

Results flagged for a closer look

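Of 244 groups of values checked for a single animal far from the others (the named members and the means of complexes I to V in each group), 16 stood out, where chance gives about 1 in 20. At 18 months all 5 were in AHRFX. Sdhc was low in replicate 3 (log2 signal 8.57, others 9.08 to 9.23). Ndufb11 was high in replicate 1 (7.97, others 6.54 to 7.06). Cox8c was low in replicate 4 (4.85, others 5.20 to 5.35), Cox7b2 was high in replicate 6 (5.19, others 4.04 to 4.36), and 1 probe set of Cox5b was low in replicate 5 (9.22, others 9.40 to 9.47). Both Cox8c and Cox7b2 are below background throughout.

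In AHRFX at 2 months, replicate 4 was low for Uqcrfs1 (6.78, others 8.46 to 8.95) and for 1 probe set of Cox7b (5.43, others 8.05 to 8.82). Low values were also found for 1 probe set each of Atp5g2 in replicate 5 (9.96, others 10.43 to 10.59), of Ndufa11 in replicate 1 (5.92, others 6.98 to 7.34) and of Ndufa8 in replicate 3 (7.82, others 8.80 to 9.13).

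In AHRVav1 at 2 months, replicate 3 was high for Cox8b (9.02, others 4.36 to 4.47), high for Atp5h (11.29, others 9.26 to 9.76) and low for Cox6b2 (4.75, others 8.46 to 9.20). Replicate 5 was high for Cox6a2 (7.37, others 5.09 to 5.68) and for Cox4i1 (11.05, others 10.63 to 10.70), and replicate 2 for Ndufa4 (11.20, others 10.82 to 10.92). Cox8b on the array of replicate 3 is the farthest of these: a muscle form at a signal of 503.6 in a cell sort whose other 21 arrays held it below background. The causes were not tested.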

How the results depend on the processing

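The genotype comparisons called 0 members under the alternatives run, except that with all 4 groups in 1 fit 2 members were called at 2 months (Ndufaf6 higher, Ndufb11 lower, 113 of all probe sets). That fit shares 1 estimate of the spread with the 18-month arrays, which varied less. The 18-month median kept its sign in each alternative. Centring on probe sets above background gave medians of -0.23 at 2 months and 0.30 for the difference between the ages. With age in AHRFX and AHRVav1 it gave medians of 1.01 and 1.30. There 86 and 96 members were called higher (80.4% and 89.7%), against 59.2% and 67.9% of all probe sets. This centring turned the age differences of Uqcrh-ps1 to 0.68 and 0.86, Cox8c to 0.089 and 0.10, Atp5c1-ps to 0.40, Ndufv3 to 0.57 and Atp5j2 to 0.49, by raising all old arrays relative to the young ones. Another quantile normalization gave an age median of 0.25 in AHRVav1. Without replicates 1 and 2 at 18 months, 12 and 16 members were called with age, and the Ahr difference at 18 months was -0.30 (exact p = 0.2). Fewer animals were left and the members' level differed between the replicate sets, and the part of either in these counts was not tested. The share of all probe sets called in that setting is not given here.

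Same-numbered samples were not taken as pairs, since no label ties them and not every pair's deviations correlated above 0.1. The correlations were 0.00465 to 0.0621 between genotypes at 2 months and -0.0404 to 0.0269 between ages. At 18 months they ran from -0.124 to 0.252 (mean 0.145, against -0.0273 for other pairs), with 5 of 6 above 0.1 and 3 of 6 samples closest to their own number, a hint from the data that some same-numbered samples share something. With a replicate block 13 members were called with age in AHRFX and 24 in AHRVav1, and 0 between genotypes. The share of all probe sets called under this block is not given here, so these counts do not set the members apart.

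Leaving out each array in turn gave 17 to 29 called members with age in AHRFX, 25 to 37 in AHRVav1 and 0 to 0 in the other comparisons. These counts are not set against the shares of all probe sets called. Medians ran from 0.13 to 0.21 and from 0.30 to 0.46 with age in AHRFX and AHRVav1 (highest without replicate 5 of AHRVav1 at 2 months), from 0.09 to 0.15 between genotypes at 18 months, from -0.09 to -0.0031 at 2 months and from 0.14 to 0.24 for the difference between the ages. Ahr ran from -0.71 to -0.41 at 18 months. At 2 months, where it was below background on every array, it ran from -0.054 to 0.068, turning to -0.054 without replicate 2 of AHRVav1 and to -0.047 without replicate 5 of AHRFX. Among the values of named genes under alternatives, 837 kept their direction and side of the threshold, 22 lost a call, 8 gained one and 7 turned. Signal over background limits what can be said of the 31 member probe sets that were above background on some arrays and the 6 on none.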
